A study of Saccharomyces cerevisiae with 6 samples.

Results

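Heme biosynthesis in *Saccharomyces cerevisiae* was followed through 9 genes, taken by name from 6400 genes with read counts: the enzyme genes HEM1, HEM2, HEM3, HEM4, HEM12, HEM13, HEM14 and HEM15, and ROX1, which encodes a repressor of HEM13 and of other genes of low oxygen. RNA was sequenced from 3 biological replicates of the evolved strain CX01F and 3 of CX01, the strain it was evolved from. The study's question was how metabolism adapts to growth on methanol. Cells went from YPD, a rich medium, into Delft medium, a defined minimal medium, for 16 h and then into Delft medium with 1% methanol and no glucose. They were grown in shake flasks at 30 °C and 200 rpm and collected at an OD600 near 1.0. Both strains carry one genotype label. It lists P. Paox1-SKL with P. Pdas1-skl and P. pDAK, then B. mMDH3-skl together with B. mACT1-skl, P. pPYC, and the set P. sXR, P. sXDH and P. sXK. It also lists PEX5, S.c MDH2, S. cMDH3 and S. Cnde1, and deletions of PEX31 and PEX32. The label names no promoter and does not say whether CX01F is a single clone.

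Heme is the iron-containing ring that serves as the prosthetic group of cytochromes, catalases and other proteins. In yeast its synthesis starts in the mitochondrion with glycine and succinyl-CoA, passes through the cytosol, and ends in the mitochondrion with the insertion of iron. Heme also acts as a signal of oxygen: it activates Hap1, which turns on respiratory genes and ROX1, and the Rox1 protein in turn represses hypoxic genes, among them HEM13.

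The upstream stretches of HEM3, HEM15 and HEM13 are shown because HEM3 and HEM15 had the largest rise and fall among the 9 genes and HEM13 is the classical Rox1-repressed gene of the pathway. Each runs from base 300 to base 151 before the start codon in the RefSeq R64 reference strain, 5′ to 3′ on the gene's strand, and the CX01 strains may differ from it. Capitals mark ATTGTT, the core of the Rox1 motif, and CCAAT, the core of the Hap2/3/4/5 motif, on either strand.
HEM3, chrIV:93896-94045, minus strand: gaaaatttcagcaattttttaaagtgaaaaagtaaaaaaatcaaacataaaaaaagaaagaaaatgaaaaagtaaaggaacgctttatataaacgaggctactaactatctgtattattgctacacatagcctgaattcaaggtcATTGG
HEM13, chrIV:546342-546491, plus strand: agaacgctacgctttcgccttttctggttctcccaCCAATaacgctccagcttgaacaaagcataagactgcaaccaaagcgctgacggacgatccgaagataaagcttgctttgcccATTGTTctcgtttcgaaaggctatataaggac
HEM15, chrXV:662101-662250, plus strand: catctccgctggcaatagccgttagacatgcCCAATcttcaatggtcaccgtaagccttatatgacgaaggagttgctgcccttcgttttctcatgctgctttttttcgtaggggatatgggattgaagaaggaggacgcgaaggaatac

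In these stretches HEM13 holds an ATTGTT at bases 182 to 177 before its start and a CCAAT at 265 to 261. HEM15 holds a CCAAT at 269 to 265 and no ATTGTT. HEM3 holds a CCAAT on its other strand at 155 to 151. Nearer to its start, outside the printed stretch, HEM3 also holds an ATTGTT on its other strand at 67 to 62. Over the whole 300 bases, both strands searched, ATTGTT was found upstream of 5 of the 9 genes and of 34.1% of 6001 nuclear coding genes. CCAAT was found upstream of 6 of the 9 genes and of 41.8% of all. The Hap1 site CGGNNNTANCGG was found upstream of none of the 9 and of 0.133% of all. With so rare a match, its absence from 9 genes says little, and bases further upstream were not searched. These are letter matches and do not show binding.

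Library totals ranged from 51537969 to 63183824 counts, and the 9 genes had between 992 and 23296 counts in a library, so none was near the limit of detection. Levels are CPM, the count as a proportion of the library, on library sizes scaled by TMM, a method that assumes most genes do not change. Of 6129 tested genes, 5603 (91.4%) differed between the strains at an adjusted p under 0.05 in edgeR's quasi-likelihood test, 2787 (45.5%) higher and 2816 (45.9%) lower in CX01F. With library size only, 2221 were higher and 3407 lower, and the median log2 change shifted by -0.21. On chromosomes XI and XV the coding genes were lower in CX01F, with median log2 changes of -0.82 and -0.86, against 0.02 to 0.26 on the other 14 chromosomes. HEM4 and HEM15 are on XV.

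All 9 heme genes passed the test in CX01F against CX01, 6 higher and 3 lower, beside 91.4% of all genes. The libraries of the strains did not overlap for any of the 9, as for 91.9% of all genes. HEM3 rose 2.35-fold and HEM15 fell 2.23-fold, and the other 7 moved by less than 2-fold (30.6% of all genes moved by 2-fold or more). The median log2 change of the 9 was 0.22, beside -0.0020 over all tested genes. With library size only it was 0.0096.

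**Figure D1:**
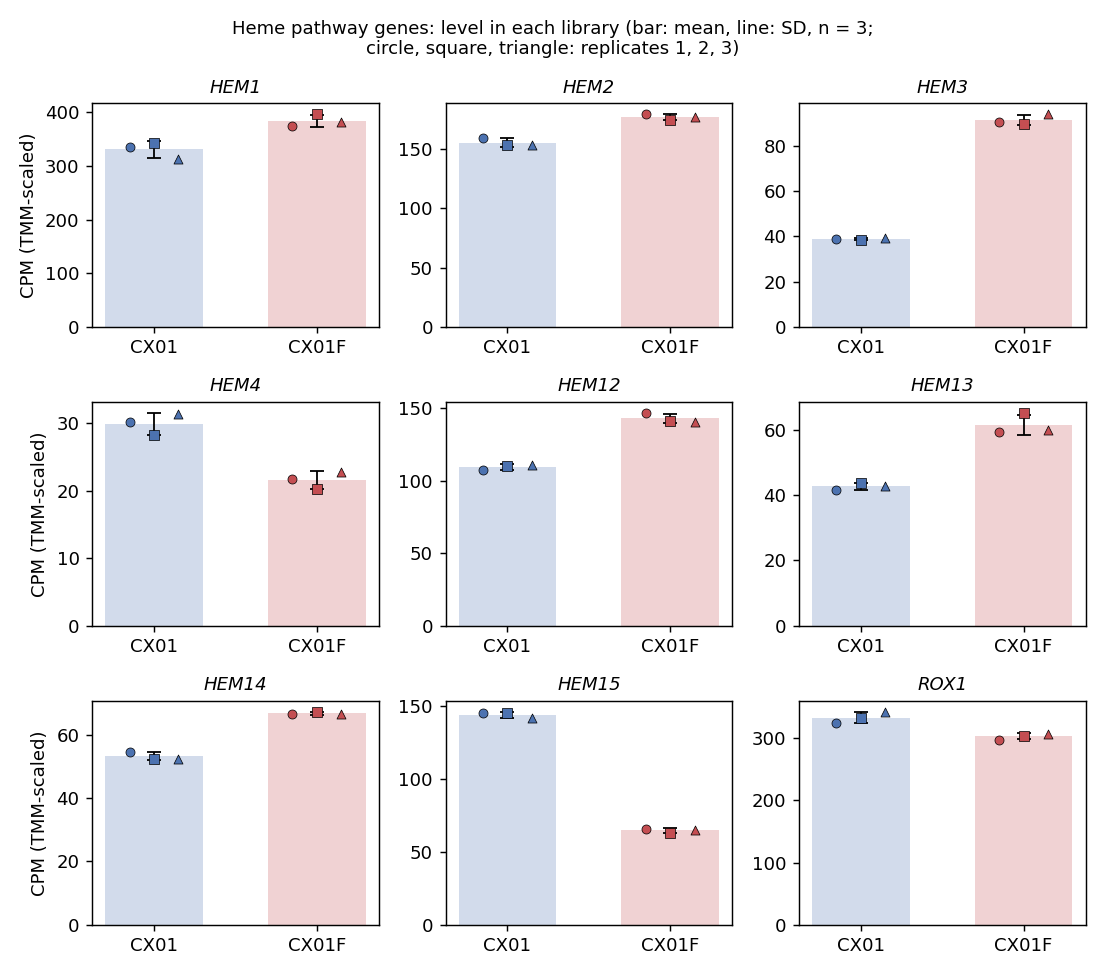
TMM-scaled CPM of each of the 9 heme genes (vertical axes, each from 0) in the 3 CX01 and 3 CX01F libraries; bars are means, lines SD, and each point is a library. HEM3 stands near 39 CPM in CX01 and above 89 CPM in CX01F, HEM15 stands above 141 and below 66 CPM, and no panel shows overlapping strains.

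The first steps rose slightly. HEM1 encodes 5-aminolevulinate synthase, the mitochondrial enzyme that condenses glycine with succinyl-CoA. It was at 335, 344 and 313 CPM in the CX01 libraries and at 375, 397 and 382 CPM in the CX01F libraries. All 3 CX01F libraries were above all 3 CX01 libraries, by a log2 fold change of 0.22 (SE 0.0348, edgeR adjusted p = 3.66e-05). HEM2, the porphobilinogen synthase gene, ranged from 153 to 160 CPM in CX01 and from 174 to 180 CPM in CX01F (log2 0.19, edgeR adjusted p = 1.16e-05). These small rises depend on how libraries were scaled: with no scaling beyond library size, HEM1 was at log2 0.0096 (adjusted p = 0.795) and HEM2 at -0.021 (adjusted p = 0.48).

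HEM3 had the largest rise of the 9 genes. HEM3 encodes porphobilinogen deaminase, which links porphobilinogen units into the linear tetrapyrrole. Its levels were 38.9, 38.5 and 39.4 CPM in CX01 and 90.7, 89.9 and 94.1 CPM in CX01F. The strains were far apart relative to the spread within either, with a log2 fold change of 1.23 (SE 0.0307, edgeR adjusted p = 2.13e-14). The rise was 1.03 with library size only. Over the 6 libraries, the genes whose centred log2 CPM lay closest to that of HEM3 among 5491 candidates were PRS1, ADE8 and SOD2, at Euclidean distances of 0.0405, 0.0409 and 0.0456. With 2 strains, such likeness reflects mainly an equal change, and these 3 genes had log2 changes of 1.21, 1.23 and 1.22.

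HEM4, which encodes uroporphyrinogen III synthase, closes the ring in the next step and moved against its neighbours in the pathway. It was at 30.1, 28.2 and 31.4 CPM in CX01 and at 21.7, 20.2 and 22.8 CPM in CX01F. Every CX01F library was below every CX01 library (log2 -0.47, SE 0.0537, edgeR adjusted p = 1.13e-06).

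The next 3 enzymes rose moderately. HEM12, the uroporphyrinogen decarboxylase gene, ranged from 107 to 111 CPM in CX01 and from 141 to 147 CPM in CX01F (log2 0.38, edgeR adjusted p = 5.67e-09). HEM13 encodes coproporphyrinogen oxidase, which needs molecular oxygen. It was at 41.7, 43.7 and 42.9 CPM in CX01 and at 59.5, 65.2 and 59.8 CPM in CX01F, a log2 change of 0.52 (SE 0.0393, edgeR adjusted p = 9.23e-09). The CX01F libraries were all higher, and CX01F replicate 2 was the highest of them. HEM14, which encodes protoporphyrinogen oxidase, ranged from 52.4 to 54.6 CPM in CX01 and from 66.4 to 67.2 CPM in CX01F (log2 0.33, edgeR adjusted p = 7.95e-08). On R64, 489 bases of HEM14 overlap BUD25 on the other strand, which held 0 to 1 counts in a library, and how reads in the overlap were assigned is not given. The log2 changes of HEM12, HEM13 and HEM14 were 0.18, 0.32 and 0.12 with library size only, each still past the threshold.

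The last enzyme fell. HEM15 encodes ferrochelatase, the inner-membrane enzyme that puts iron into protoporphyrin IX. Its levels were 145, 145 and 141 CPM in CX01 and 65.7, 62.9 and 64.7 CPM in CX01F. The strains did not overlap, with a log2 fold change of -1.16 (SE 0.0278, edgeR adjusted p = 1.50e-14), and -1.36 with library size only.

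Both falling enzyme genes lie on chromosome XV and the 6 rising ones do not. The median log2 change of the chromosome was -0.86, and HEM15 differed from it by -0.29 and HEM4 by 0.40. Of 536 tested coding genes on XV, 191 had a lower log2 change than HEM15 and 368 a lower one than HEM4. ALE1 and RFM1, which adjoin HEM15 and HEM4 in R64, were at log2 -0.69 and -0.75. The part of the chromosome-wide shift in the falls of HEM4 and HEM15 was not tested. When the genes of XI and XV were kept out of the scaling, HEM4 and HEM15 were at -0.58 and -1.27, and HEM1 and HEM2 at 0.10 and 0.07, all past the threshold.

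**Figure D2:**
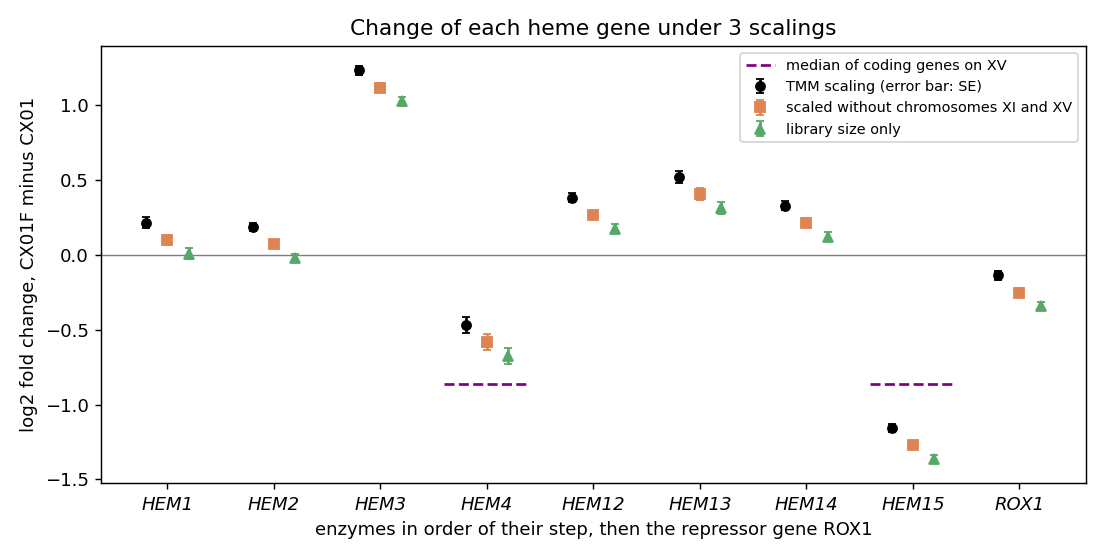
Log2 fold change of each of the 9 genes (vertical axis, CX01F minus CX01) with TMM scaling, with scaling that leaves out chromosomes XI and XV, and with library size only; error bars are SE and the dashed lines mark the median of coding genes on XV. HEM3 and HEM15 stay apart from 0 under each scaling, HEM15 lies below the XV median and HEM4 above it, while HEM1 and HEM2 reach 0.0096 and -0.021 with library size only.

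Levels of different genes were compared as CPM per kb of coding length. In CX01 the order among the enzymes was HEM1 (201 CPM per kb), HEM2 (151), HEM15 (122), HEM12 (101), HEM13 (43.3), HEM3 (39.5), HEM4 (36.1) and HEM14 (32.8). In CX01F it was HEM1 (233), HEM2 (172), HEM12 (131), HEM3 (93.0), HEM13 (62.3), HEM15 (54.5), HEM14 (41.2) and HEM4 (26.0). Neighbours in either order did not overlap between libraries. HEM15 thus went from place 3 to place 6 and HEM3 from place 6 to place 4.

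The shares of the enzymes in their summed per-length level do not depend on library scaling. HEM15 took 16.7% ± 0.0150 (SD, n = 3) of the sum in CX01 and 6.70% ± 0.167 in CX01F. HEM3 took 5.45% ± 0.132 and 11.4% ± 0.294. HEM1 and HEM2 overlapped between strains, at 27.7% ± 0.951 and 28.7% ± 0.753 for HEM1 and 20.8% ± 0.406 and 21.1% ± 0.376 for HEM2. The per-length ratio of HEM3 to HEM15 was 0.323, 0.319 and 0.334 in the CX01 libraries and 1.66, 1.72 and 1.75 in the CX01F libraries. HEM15 was therefore the more abundant of these transcripts in each CX01 library and HEM3 in each CX01F library. The summed level of the 8 enzymes was 726 ± 9.72 CPM per kb in CX01 and 814 ± 2.42 CPM per kb in CX01F, but with library size only the order turned, at 780 ± 12.6 and 758 ± 1.71.

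**Figure D3:**
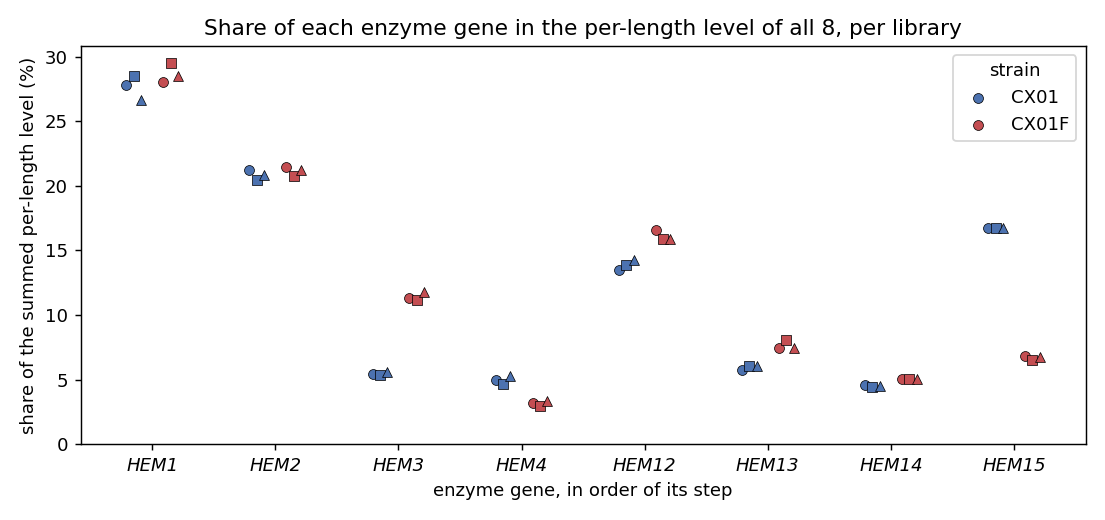
Share of each of the 8 enzyme genes in their summed CPM per kb of coding length (vertical axis, percent), 1 point per library. HEM15 drops from 16.7% to 6.70% and HEM3 climbs from 5.45% to 11.4%, while HEM1 and HEM2 overlap between the strains.

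ROX1, the repressor gene, moved little. It encodes a DNA-binding protein of the HMG class. It was at 324, 332 and 343 CPM in CX01 and at 298, 304 and 308 CPM in CX01F. The CX01F libraries were all lower, by a log2 of -0.14 (SE 0.0277, edgeR adjusted p = 0.00035). The change was -0.25 without chromosomes XI and XV in the scaling and -0.34 with library size only. Per length, ROX1 was above each of the enzyme genes in both strains, at 301 and 274 CPM per kb.

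Genes known as repressed by Rox1 in air, other than HEM13, changed in both directions. Of 9 genes, 2 were higher, 6 lower and 1 was not called, where 91.4% of all genes were called and 45.9% were lower. Their median log2 change was -0.30, and -0.51 with library size only. CYC7, which encodes the hypoxic form of cytochrome c, was 3.18-fold lower (log2 -1.67, edgeR adjusted p = 1.56e-12). FET4, a low-affinity iron transporter gene, was 2.20-fold higher (log2 1.14, edgeR adjusted p = 3.85e-14).

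Several hypoxic genes have an aerobic partner with the same function, and 5 such pairs were compared. The hypoxic gene of each pair is also in the list of Rox1-repressed genes above. CYC7 was at 31.9, 29.4 and 34.0 CPM in CX01 and at 9.99, 10.1 and 9.85 CPM in CX01F, while CYC1, its aerobic partner, went from 35.5, 36.7 and 38.4 CPM to 277, 262 and 271 CPM. Neither gene overlapped between strains. Per length, CYC7 made up 45.4% ± 1.58 of the pair in CX01 and 3.45% ± 0.128 in CX01F. The log2 ratio of CYC7 to CYC1 fell by 4.53, the largest difference among the 5 pairs.

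The ratio was lower in CX01F in the other 4 pairs too. For the subunit V genes of cytochrome oxidase, COX5B to COX5A, it fell by 2.34. COX5A rose by a log2 of 1.41 and COX5B was at -0.93 in the same fit. For the ADP/ATP carriers AAC3 and PET9 the ratio fell by 2.05, but AAC3 itself did not pass the test (3.10 ± 0.179 CPM in CX01, 2.96 ± 0.319 in CX01F, edgeR adjusted p = 0.518), and PET9 rose by 1.98. With library size only AAC3 was called lower (log2 -0.28, edgeR adjusted p = 0.0243). For the eIF5A genes ANB1 and HYP2 the ratio fell by 1.68, and as these are close copies their reads may have been shared. ANB1 was at 4.06 ± 0.613 CPM in CX01 and 1.62 ± 0.167 in CX01F, and HYP2 rose by a log2 of 0.40. For the HMG-CoA reductase genes HMG2 and HMG1 the ratio fell by 0.78, with HMG2 at log2 -0.20 and HMG1 at 0.58. In each pair the CX01F libraries lay apart from the CX01 libraries. The two-sided exact permutation test gave p = 0.1 for each pair, which is the smallest that 3 against 3 libraries allow, and 0.1 after adjustment over the 5.

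**Figure D4:**
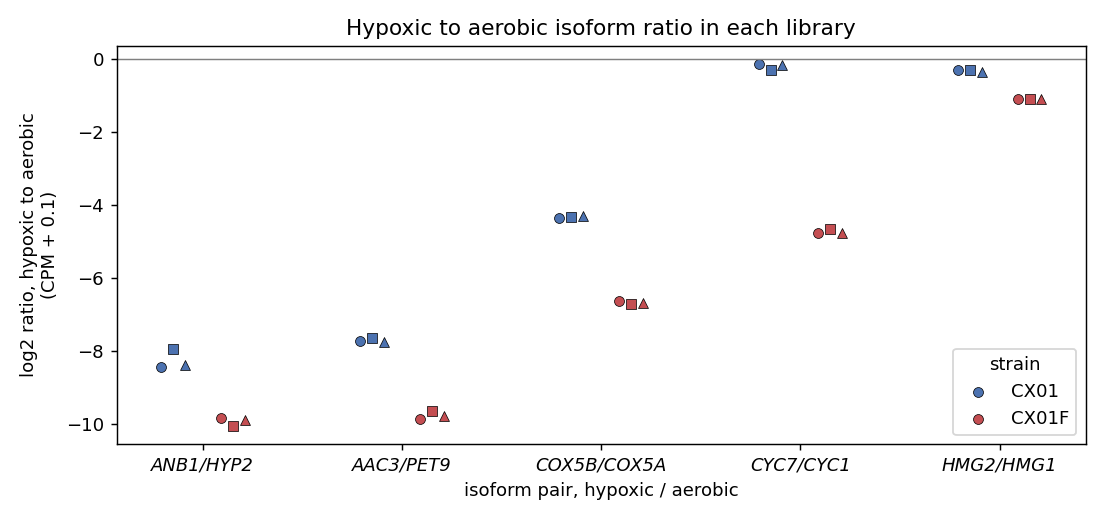
Log2 ratio of the hypoxic to the aerobic gene (vertical axis, CPM with 0.1 added) in each library for 5 isoform pairs. The CX01F points lie below the CX01 points in each pair, by 4.53 for CYC7/CYC1 and by 0.78 for HMG2/HMG1.

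Genes that supply the pathway came next. Of 12 genes for succinyl-CoA, glycine, cofactor and iron supply to the mitochondrion, 11 were higher and 1 lower, with a median log2 change of 0.99, where 91.4% of all genes were called and 45.5% were higher. With library size only 10 were higher, 1 lower and 1 not called, with a median of 0.78. Without the genes of XI and XV, 9 of 10 were higher and 1 was not called. LPD1 and KGD2, subunits of the complex that makes succinyl-CoA, were at log2 1.83 and 1.70. HEM25, the mitochondrial glycine carrier gene, was chosen after its values were seen: it was at 15.8, 14.4 and 13.5 CPM in CX01 and 34.4, 35.3 and 35.0 CPM in CX01F (log2 1.26, edgeR adjusted p = 1.02e-11). YFH1, the frataxin gene, had overlapping strains, and its call rested on the scaling: it was at log2 0.12 (edgeR adjusted p = 0.0211), at 0.0059 (0.902) without XI and XV, and at -0.086 (0.0812) with library size only.

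Genes that use or break down heme changed in both directions. HMX1, which encodes heme oxygenase, the enzyme that opens the ring and frees its iron, was at 73.8, 78.5 and 72.2 CPM in CX01 and 522, 515 and 523 CPM in CX01F. This was a 6.95-fold rise with no overlap (log2 2.80, SE 0.0328, edgeR adjusted p = 9.24e-18). PUG1, a plasma membrane gene for protoporphyrin and heme transport, rose 1.96-fold, and the third gene of this list of 3 was lower.

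In the list for heme A and heme attachment to cytochromes, 4 of 7 genes were higher and 3 lower, beside 91.4% of all genes called. The median log2 change was 0.25, the value of COX10, and 0.047 with library size only, where COX10 lost its call (edgeR adjusted p = 0.209). COX15, also a heme A gene and on V, was 1.64-fold lower (log2 -0.72, edgeR adjusted p = 1.18e-12), and at -0.92 with library size only. CYC3, the lyase that attaches heme to cytochrome c, rose 4.40-fold, from 64.2 ± 2.0 to 282 ± 2.51 CPM (log2 2.14, edgeR adjusted p = 3.11e-17). CYC2, a mitochondrial flavoprotein gene of the same step and on XV, was 2.90-fold lower (log2 -1.54). CYT2, a gene of the same list and on XI, was 1.60-fold lower (log2 -0.68). Without the genes of XI and XV, 4 of 5 in the list were higher and 1 lower, with a median of 0.31.

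Genes of proteins that carry heme, or a domain that binds it, did not share a direction. Of 19 genes 10 were higher and 9 lower, beside 91.4% of all genes called, with a median log2 change of 0.19. With library size only 8 were higher and 9 lower, with a median of -0.016. YHB1, the flavohemoglobin that removes nitric oxide, rose from 116 ± 1.01 to 2178 ± 37.7 CPM (18.7-fold, log2 4.23, edgeR adjusted p = 2.29e-19). CTT1, the cytosolic catalase, fell from 166 ± 3.83 to 15.2 ± 0.896 CPM (10.9-fold lower, log2 -3.45).

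Siroheme, the cofactor of sulfite reductase, branches off at uroporphyrinogen III, the product of the HEM4 step. The list for siroheme synthesis and sulfite reductase held 4 genes, 3 higher and 1 lower. Of all genes, 91.4% were called and 45.5% were higher. With library size only 2 of the 4 were higher and 2 lower. MET1, the methyltransferase that opens this branch, on XI, was 2.98-fold lower (log2 -1.58). MET8, the other siroheme synthesis gene of the list, was 1.51-fold higher (log2 0.60). MET10, a sulfite reductase subunit, was 1.62-fold higher (log2 0.70). MET5, the other sulfite reductase subunit, was at 0.058, and at -0.15 and -0.057 with library size only and without XI and XV, past the threshold each time.

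Of 12 regulators of heme and oxygen response, 2 were higher, 9 lower and 1 was not called, where 91.4% of all genes were called and 45.9% were lower. Their median log2 change was -0.38, and -0.58 with library size only, and 3 of the 12 are on XI or XV. The gene not called, TUP1, part of the corepressor that Rox1 recruits, was at -0.048 (edgeR adjusted p = 0.157). It was called lower at -0.26 with library size only and at -0.16 without XI and XV. IXR1, an HMG-class regulator of hypoxic genes, on XI, was 3.35-fold lower (log2 -1.74), and ECM22, a regulator of sterol genes, was 2.62-fold lower (log2 -1.39). HAP1, HAP2, HAP3, HAP4, HAP5 and CYC8 were chosen after their values were seen. HAP1, the heme-activated regulator, was at log2 -0.53 (edgeR adjusted p = 6.17e-10). HAP4, the activating subunit of the Hap2/3/4/5 complex, on XI, was at 0.38, and CYC8, the partner of TUP1 in that corepressor, was at 0.82.

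**Figure D5:**
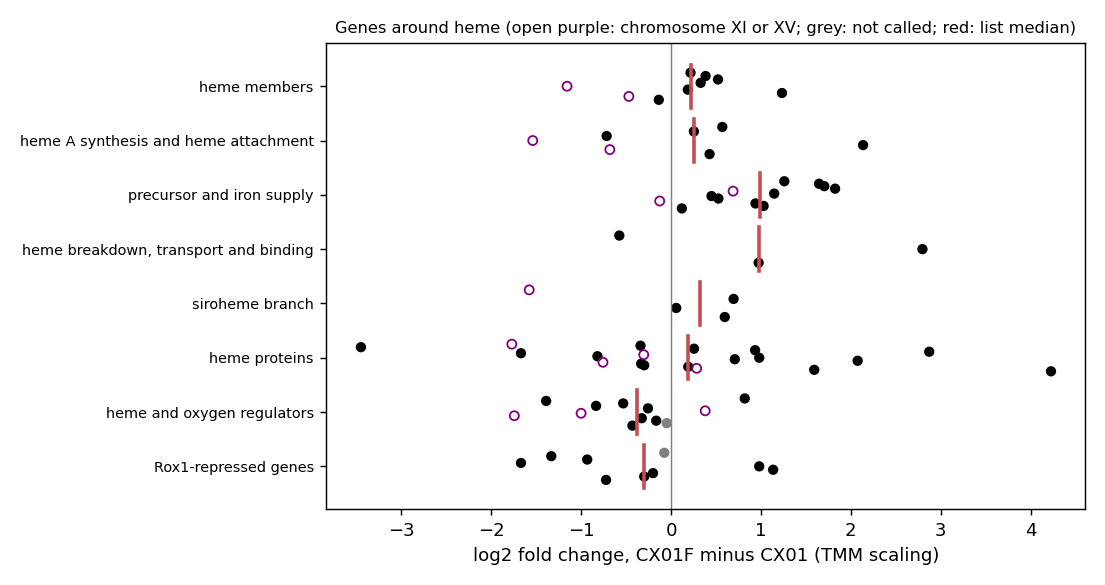
Log2 fold change (horizontal axis, CX01F minus CX01, TMM scaling) of each gene in the heme set and in 7 lists around it; red lines are list medians, open points are genes of chromosomes XI and XV, and grey points did not pass the test. The supply list has a median of 0.99, with 11 of 12 genes higher, and the regulators have a median of -0.38, with 9 of 12 lower.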

How the data were processed

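The authors deposited raw read counts per gene as whole numbers. Subread 1.4.6 with featureCounts, TopHat2 2.0.12 and Cufflinks appear in the submitters' processing notes, with no role stated. The build, annotation, strand setting and multi-mapped reads are not given in the sources used here. A row without a gene name (0.00877% to 0.044% of counts) was left out. Gene names were matched by symbol to RefSeq R64 (all 9 heme genes matched) for chromosome and coding length, and upstream sequence and positions are those of R64. In R 4.3.3 with edgeR 4.0.16, filterByExpr (minimum count 10, minimum total 15) kept 6129 of 6400 genes. The quasi-likelihood test after TMM scaling had strain as its only term. It was tried on simulated data in which few genes changed, so that trial does not cover data where most genes differ. P-values are two-sided, with Benjamini-Hochberg adjustment over all tested genes, called under 0.05. SE is the log2 change divided by the root of F. Alternatives used DESeq2 1.42.0 and limma 3.58.1. No batch is labelled, so strain and any batch cannot be told apart. Members and lists were chosen with earlier results of these data known. Genes named beside the 9 are those of the isoform pairs and, from each list, the 2 called genes of largest change with a mean of at least 10 CPM, with the 3 genes closest in profile to HEM3. Genes that adjoin or overlap a heme gene (ALE1, RFM1, BUD25) were chosen after their values were seen. So were HEM25, COX15, CYT2, MET8, HAP1, HAP2, HAP3, HAP4, HAP5 and CYC8. The same holds for genes whose call or sign changed with the scaling or that set a median (YFH1, MET5, COX10, TUP1). Counts carry no molecular identifiers.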

Additional observations from a re-analysis of the deposited data

How the results depend on the processing

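The 9 heme genes were refitted under 13 alternatives, and 115 of 117 values kept their direction and their side of the threshold. The exceptions were both with library size only, where HEM1 lost its call (log2 0.0096, adjusted p = 0.795, and SE 0.0351) and HEM2 turned to -0.021 (adjusted p = 0.48). By construction this scaling lowers every log2 change by about the same amount, with a median shift of -0.21. The number of heme genes called was then 7, 4 higher and 3 lower, and it was 9 under the other 12 alternatives. The median log2 change of the 9 genes was 0.0096 with library size only and 0.10 without chromosomes XI and XV. With each library left out in turn it lay between 0.18 (without CX01 replicate 3) and 0.25. Leaving out 1 library moved HEM1 between 0.18 and 0.25, HEM3 between 1.21 and 1.25, and HEM15 between -1.17 and -1.14. Under the replicate block, a term for the replicate number, all 9 genes were called, as were 61 of the 63 genes in the lists around them and 5619 genes in all. Same-numbered libraries deviated together with correlations of only 0.0242, 0.0785 and 0.0207, so the numbers were not taken as pairs. All 40 alternative values of the isoform ratios kept their sign. The 5 under the replicate block equal the main values by construction, so they could not differ. The exact sign-flip test over same-numbered libraries gave p = 0.25 for each pair, the smallest that 3 differences allow. Depth is no limit for the 9 genes, whose lowest count was 992.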
